A study of Xenopus laevis x Xenopus muelleri with 8 samples.

Results

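B-type cyclins were followed in the ovary of hybrid frogs through 6 probe sets, each listed for a single gene of this family, out of 11485 probe sets on the array. A probe set is a group of short probes read out as 1 value. Members were the probe sets with 1 listed gene symbol that, without its homeolog ending, began with ccnb and a digit from 1 to 5. They stood for 6 genes with 1 probe set each, namely ccnb1.S, ccnb1.2.L, ccnb1.2.S, ccnb2.L, ccnb2.S and ccnb3.L. No member had a symbol beginning with ccnb4 or ccnb5, so the family is not fully covered by name. The rule used names and no measured value, but the members were chosen with earlier results of these data known. A further probe set was listed for both ccnb2.L and ccnb2.S and was not counted as a member. The endings .L and .S mark homeologs, the copies of a gene on the long and the short chromosomes of the duplicated Xenopus laevis genome.

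The animals had a X. laevis mother (Cape of South Africa) and a X. muelleri father (Swaziland), were raised from eggs in standard conditions and were sexually mature. The titles gave 4 ovaries as normal and 4 as sex-reversed, and each was measured on its own Affymetrix array. The labels name no agent or method of sex reversal and no genotype beyond the cross. The source names of all 8 arrays said testis and that of sex-reversed replicate 4 also said normal, whereas titles and descriptions said ovary, and the titles were followed. A hybrid carries a maternal X. laevis and a paternal X. muelleri allele of each homeolog, and a probe set gives 1 value for whatever it binds, so the parental alleles were not measured apart.

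B-type cyclins are the regulatory subunits of Cdk1, the kinase that drives entry into M phase of meiosis and mitosis. Fully grown Xenopus oocytes are arrested in the first meiotic prophase and store cyclin mRNAs and inactive Cdk1 and cyclin B complexes. On maturation the inhibitory phosphates on Cdk1 are removed, stored cyclin mRNAs are polyadenylated and translated, and cyclin B is later destroyed through the anaphase-promoting complex, a ubiquitin ligase. Cyclins B1 and B2 are among the forms of the oocyte, and cyclin B3 is a more distant relative that in mouse and fly takes part in meiotic anaphase.

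All values are log2 expression made by RMA, and array medians lay between 6.0 and 6.04. The arrays were clustered over all probe sets and divided into 2 sets, a number imposed and not read from the data. Each set held 4 arrays, and the sets crossed the groups. Normal replicates 1 and 4 and sex-reversed replicates 3 and 4 formed set 1, and the other 4 arrays set 2. Correlations between arrays were 0.954 to 0.972 within a set and 0.943 to 0.953 between sets. What the sets stand for is not given by the labels, so the members' differences are also given within each set. The 13 measured oocyte marker genes were bright, averaging 9.55 to 9.84 on the normal and 9.61 to 9.76 on the sex-reversed arrays. The 2 measured genes of the list drawn up for testis are given with the other marker lists at the end.

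The B1-type genes varied little between arrays. Ccnb1.S, a cyclin B1 gene, measured 13.20, 13.26, 13.10 and 13.13 in normal replicates 1 to 4 and 13.13, 13.13, 13.11 and 12.96 in sex-reversed replicates 1 to 4. The groups overlapped, and the low value of sex-reversed replicate 4 set the edge of the range. The normal mean was 13.17 ± 0.07 and the sex-reversed mean 13.08 ± 0.08 (SD, n = 4 each).

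Ccnb1.2.L, from the second gene listed as cyclin B1, measured 13.10, 13.18, 13.20 and 13.20 in normal and 13.22, 13.24, 13.15 and 13.15 in sex-reversed ovary, in order of replicate. Its groups overlapped and its whole range over 8 arrays was 0.14. Both ccnb1.S and ccnb1.2.L lay at the upper end of the scale, between the 2nd and the 8th highest value of their array. Some deposited values there recur to the last digit, and the 16 values of these 2 genes took 10 distinct numbers, so differences this small are at the grain of the data. Whether these 2 probe sets were saturated was not tested, and a small range at this end of the scale is not evidence of a steady transcript level.

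Ccnb1.2.S, the homeolog of ccnb1.2.L, measured 9.97, 9.95, 9.98 and 9.97 in normal ovary, a spread of 0.01 (SD, n = 4). In sex-reversed ovary it measured 10.19, 9.96, 9.91 and 10.12. Sex-reversed replicates 1 and 4 lay above every normal array, replicate 3 lay below them all and replicate 2 among them.

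Ccnb2 gave the contrast within the family. Ccnb2.L, the long-chromosome copy of cyclin B2, measured 12.29, 11.89, 11.97 and 12.21 in normal and 12.09, 12.11, 12.26 and 11.98 in sex-reversed ovary. The means were 12.09 ± 0.19 (SD, n = 4) and 12.11 ± 0.11 (SD, n = 4), and the groups overlapped over most of their range.

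Its homeolog ccnb2.S measured 8.17, 11.75, 11.84 and 8.09 in normal replicates 1 to 4. In sex-reversed replicates 1 to 4 it measured 12.26, 12.23, 12.21 and 11.65. Normal replicates 1 and 4 thus formed a low level at 8.09 to 8.17, and the other 6 arrays, normal replicates 2 and 3 among them, lay between 11.65 and 12.26. The gap between the levels was 3.48 on the log2 scale, or 11.1-fold. Sex-reversed replicate 4 lay below both of the high normal arrays, so the groups overlapped.

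The SD of ccnb2.S was 2.12 over the normal and 0.29 over the sex-reversed arrays (n = 4 each), and a group mean describes no single normal array. Its range over 8 arrays was 4.17, which 146 of 11485 probe sets exceeded. The median range over all probe sets was 0.92, and the members other than ccnb2.S and ccnb3.L ranged by at most 0.41. The low arrays did not carry low ccnb2.L values. Normal replicate 1 had the highest ccnb2.L value of all arrays and normal replicate 4 the third highest.

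The probe set listed for both ccnb2.L and ccnb2.S measured 8.81, 8.32, 8.69 and 8.77 in normal and 8.69, 8.63, 8.78 and 8.40 in sex-reversed ovary. It too was not low in normal replicates 1 and 4. Which share of its value came from each homeolog cannot be read from it.

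Ccnb3.L, the only measured cyclin B3 gene, was 7.80, 6.70, 7.60 and 7.51 in normal and 7.69, 7.36, 8.08 and 7.92 in sex-reversed ovary. Normal replicate 2 was the lowest array, and sex-reversed replicates 3 and 4 lay above every normal one. The ending of its probe set name marks probes that may bind other transcripts.

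**Figure D1:**
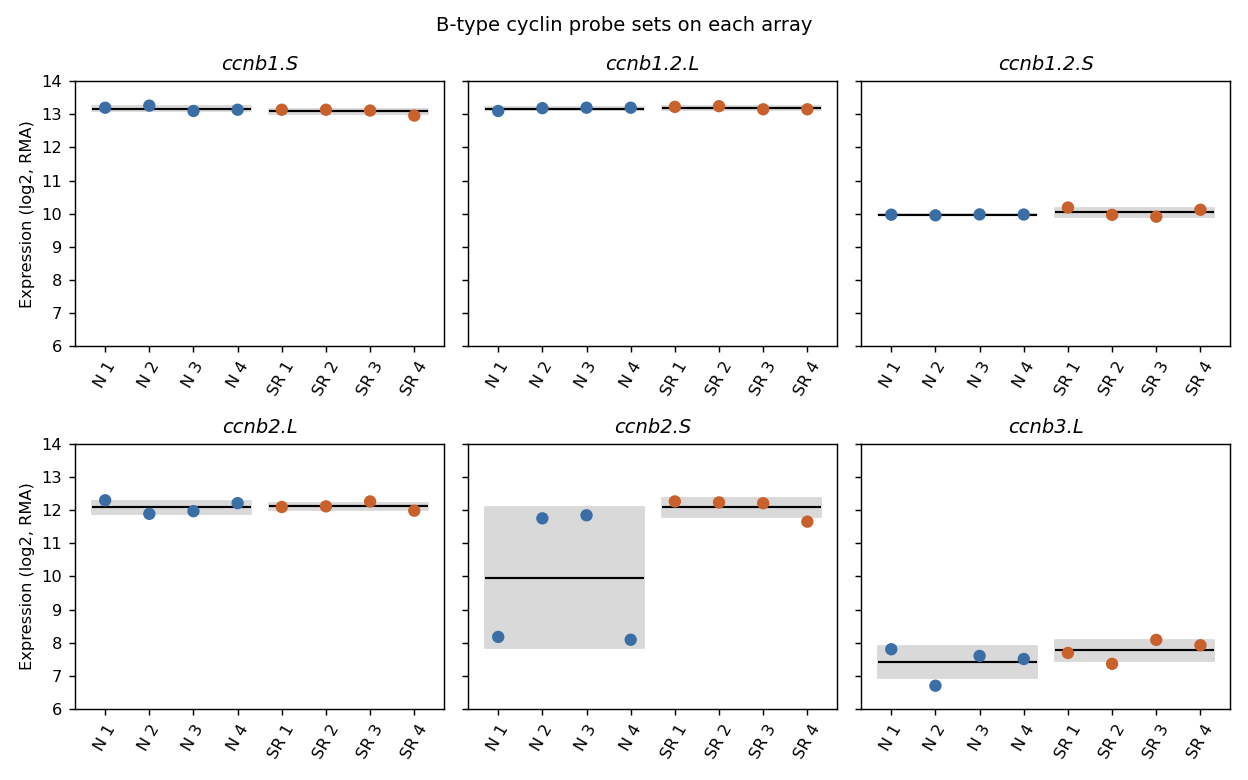
Log2 expression (RMA, vertical axis) of the 6 B-type cyclin probe sets on each array, with normal arrays (N 1 to N 4) in blue and sex-reversed arrays (SR 1 to SR 4) in orange, where lines are group means and grey bands are ± 1 SD (n = 4). Ccnb2.S sits at 8.09 to 8.17 on normal replicates 1 and 4 and at 11.65 to 12.26 on the other 6 arrays, while ccnb2.L stays between 11.89 and 12.29 on all 8.

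The first comparison asked whether sex-reversed ovary differed from normal ovary in B-type cyclin transcripts. None of the 6 members passed an adjusted p of 0.05 in limma, nor did any of the 11485 probe sets (0%). At an unadjusted p of 0.05 limma called 1 of 6 members, ccnb2.S, against a background of 6.38% of all probe sets, 3.21% higher and 3.17% lower. The groups overlapped in all 6 members, against 4.06% of probe sets without overlap.

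Ccnb2.S was higher in sex-reversed ovary by 2.12 ± 0.89 (log2, SE; 95% interval 0.10 to 4.15; unadjusted p = 0.0421, adjusted p = 0.779 in limma). This pooled value joined unlike parts. Within array set 1, where both low normal arrays lie, the difference was 3.80, and within set 2 it was 0.45. With 2 arrays of each group in a set, these are given as values with no test. The difference ran from 1.50 without normal replicate 4 to 2.75 without normal replicate 3. Its unadjusted p was above 0.05 without normal replicate 1 or 4 or without any one of the sex-reversed arrays. With every array kept, the unadjusted p in limma was 0.0590 under a trended robust prior and 0.0830 with sex-reversed replicate 4 counted as normal. It stayed under 0.05 in the other alternative fits that kept every array.

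The other 5 members differed by 0.02 to 0.36 in size, with adjusted p from 0.853 to 0.983 in limma. Ccnb1.S differed by −0.09 ± 0.12 (log2, SE; 95% interval −0.36 to 0.19), the only negative value in the family. Ccnb1.2.L differed by 0.02 ± 0.12 (95% interval −0.24 to 0.29) and ccnb1.2.S by 0.08 ± 0.12 (−0.21 to 0.36). Ccnb2.L differed by 0.02 ± 0.15 (−0.31 to 0.35). Within array sets 1 and 2 ccnb2.L differed by −0.13 and 0.18, in opposite directions and by about its standard error, ccnb1.S by −0.13 and −0.04, ccnb1.2.L by 0.00 and 0.04, and ccnb1.2.S by 0.04 and 0.11. The intervals of these 4 reached at most 0.36 log2 units from 0.

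Ccnb3.L differed by 0.36 ± 0.26 (log2, SE; 95% interval −0.24 to 0.96). All 5 intervals thus stayed inside a 2-fold change up or down, as did those of 78.0% of all probe sets. The interval of ccnb3.L came close to that bound, and leaving out normal replicate 1, 3 or 4 or sex-reversed replicate 1, 2 or 4 took its upper end to between 1.00 and 1.13. Without normal replicate 2, its lowest array, ccnb3.L differed by 0.13. Within array sets 1 and 2 it differed by 0.35 and 0.37.

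**Figure D2:**
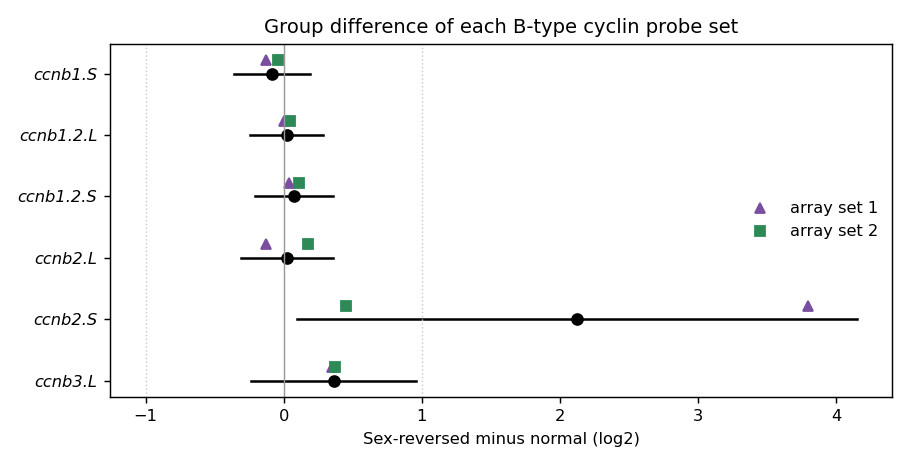
Sex-reversed minus normal difference (log2, horizontal axis) of each B-type cyclin probe set, where circles are limma estimates over 8 arrays, bars are 95% intervals, triangles and squares are the differences within array sets 1 and 2, and dotted lines mark a 2-fold change. The ccnb2.S interval runs from 0.10 to 4.15 and its values within the sets are 3.80 and 0.45, while the other 5 intervals lie between −0.36 and 0.96.

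The second comparison asked whether homeologs of 1 gene responded differently, using the S minus L difference on each array for ccnb2 and ccnb1.2, the 2 genes with both homeologs measured. Because probe sets differ in brightness, only the change of this difference between groups can be read, not its level. For ccnb2 it was −4.12, −0.14, −0.12 and −4.12 on the normal and 0.17, 0.12, −0.05 and −0.33 on the sex-reversed arrays. Again normal replicates 1 and 4 stood apart, and the 2 remaining normal arrays lay within the sex-reversed range.

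The S minus L difference of ccnb2 averaged −2.13 ± 2.30 on the normal and −0.02 ± 0.23 on the sex-reversed arrays (SD, n = 4 each), 2.10 apart. An exact permutation test over arrays, two-sided, gave p = 0.114, or 0.229 adjusted over the 2 genes. The smallest p that 4 against 4 arrays allow is 0.0286, or 0.0571 after adjustment for a single gene, so the adjusted threshold was out of reach for 1 gene alone. A different response of the ccnb2 homeologs was therefore not shown. Within array set 1 the difference was 3.93 and within set 2 it was 0.27.

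For ccnb1.2 the S minus L difference lay between −3.23 and −3.13 on the normal and between −3.28 and −3.03 on the sex-reversed arrays. The sex-reversed mean was the higher by 0.05 (exact permutation, two-sided, p = 0.429 before and after adjustment). Its sign turned to −0.05 after a further quantile normalization. The L probe set lay near the top of the scale on every array, so this contrast could miss a change in ccnb1.2.L. A homeolog of ccnb1.S or of ccnb3.L was not among the members.

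The profile of ccnb2.S, the member with the widest range, was next set against all other probe sets with 1 gene symbol, by the root-mean-square difference of mean-centred log2 values over the 8 arrays. The 5 nearest were elovl7.S (0.32), a fatty acid elongase gene, bloc1s6.S (0.33), which encodes a subunit of a complex for lysosome-related organelles, pigb.S (0.38), a mannosyltransferase gene of GPI anchor synthesis, mesd.L (0.39), a chaperone gene for Wnt co-receptors, and cert1.L (0.43), a ceramide transfer gene. They were picked for this likeness, so their values are a description. Elovl7.S was 6.99 and 6.92 in normal replicates 1 and 4 and 10.25 to 10.35 on the other 6 arrays. Mesd.L was 3.24 and 3.04 in the same 2 arrays and 7.57 to 8.32 on the other 6.

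Over the whole table, 10 of 11485 probe sets had both normal replicates 1 and 4 below each of the other 6 arrays by at least 2 log2 units, a gap set after the values were seen. They were ccnb2.S, 2 probe sets of bloc1s6.S, 1 each of cert1.L, elovl7.S, gramd2b.S, mesd.L, paip1.S and pigb.S, and 1 with no symbol listed. In 5 probe sets the same 2 arrays were above the other 6 by that gap, namely 1 each of bloc1s6.S, cdc42se2.S, cpa1.S and srsf2.L and 1 with no symbol listed.

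Other probe sets of the same genes did not all follow. Of the 4 probe sets of bloc1s6.S, the nearest to ccnb2.S was 4.33 and 4.92 in normal replicates 1 and 4 and 8.79 to 8.89 elsewhere. Another ran the opposite way, at 9.46 and 9.67 in these arrays and 4.75 to 5.65 elsewhere. Probe sets listed for the same gene were thus low and high on the same 2 arrays. Both of those quoted carry the name ending of possible binding to other transcripts, as ccnb3.L does. Another low probe set of bloc1s6.S, without that ending, was 3.01 and 3.13 in these arrays and 5.50 to 6.35 elsewhere. The remaining one was also lowest in these arrays but by less, at 8.04 and 7.85 against 8.73 to 9.49 elsewhere. The 4 further probe sets of cert1.L ranged by 0.58 to 1.05 over the 8 arrays, and the second probe set of mesd.L by 0.68. The homeolog elovl7.L ranged by 0.37 and differed between groups by −0.22 ± 0.12 (log2, SE). Only 1 probe set was listed for ccnb2.S alone, so the same check could not be made within it.

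**Figure D3:**
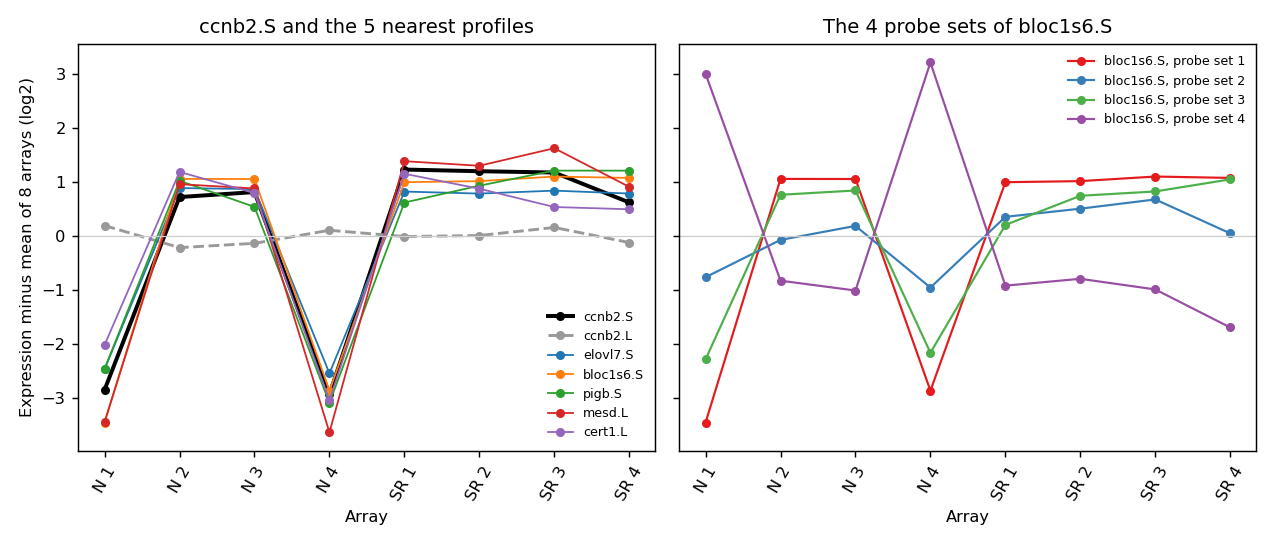
Log2 expression minus the mean of the 8 arrays (vertical axis) on normal (N) and sex-reversed (SR) arrays, on the left for ccnb2.S, its homeolog ccnb2.L and the 5 nearest profiles, on the right for the 4 probe sets of bloc1s6.S. Normal replicates 1 and 4 stand below the other 6 arrays for ccnb2.S and its 5 neighbours but not for ccnb2.L, and 1 bloc1s6.S probe set is above on the same arrays (9.46 and 9.67 against 4.75 to 5.65).

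Genes that work with B-type cyclins were read in the same fit. Across 5 lists with 118 measured genes, each read from its brightest probe set, 0 genes passed an adjusted p of 0.05 in limma and 6 had an unadjusted p under 0.05, near the background of 6.38% of all probe sets. The groups did not overlap in 2 of 24 genes of Cdk1 and its switch (wee1.L, ppp2r1a.L), 2 of 28 other cyclins and their kinases (ccne1.L, ccnh.L) and 1 of 23 proliferation genes (rrm1.L). They overlapped in every gene of the remaining lists, against 4.06% of all probe sets without overlap. The median difference was −0.03 in the list of Cdk1 and its switch, −0.01 in cyclin destruction, 0.01 in oocyte maturation and cyclin mRNA translation, 0.02 in other cyclins and 0.06 in proliferation genes, against 0.00 over all probe sets and 0.05 over the 6 B-type cyclins.

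Cdk1 itself, the partner of the B-type cyclins, differed by 0.17 ± 0.17 (log2, SE) for cdk1.L and −0.01 ± 0.18 for cdk1.S, and both pairs of groups overlapped. Of 24 genes in its list 9 were above and 15 below the normal mean. Wee1.L, an inhibitory kinase of Cdk1, averaged 10.07 ± 0.14 on the normal and 9.74 ± 0.18 on the sex-reversed arrays (SD, n = 4 each) with no overlap (unadjusted p = 0.0497, adjusted p = 0.779 in limma). Cdc25c.L, of the phosphatase that activates Cdk1, differed by −0.01 ± 0.17, and plk1.S, of a kinase that promotes that step, by 0.23 ± 0.19.

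The homeologs of ppp2r1a, a scaffold subunit of the phosphatase PP2A that opposes Cdk1, had opposite values. Ppp2r1a.L differed by −0.58 ± 0.21 (log2, SE; adjusted p = 0.733 in limma) and ppp2r1a.S by 0.60 ± 0.22 (adjusted p = 0.738). Ppp2r1a.S was dim, and its normal mean of 3.50 lay under each array's lower quartile. Cdk2.S, of a related kinase, differed by 0.65 ± 0.36.

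In the cyclin destruction list 8 of 19 genes were above and 11 below the normal mean. Cdc20.L, of the activator that brings cyclin B to the anaphase-promoting complex, was 11.57 in both groups and differed by 0.00 ± 0.15 (log2, SE), and cdc20.S differed by −0.25 ± 0.18. Mad1l1.L, of a spindle checkpoint protein, was 7.81, 8.99, 8.64 and 7.73 in normal and 8.85 to 9.16 in sex-reversed ovary. Its lowest arrays were normal replicates 1 and 4, as for ccnb2.S but by less, and its difference of 0.73 ± 0.29 did not pass (unadjusted p = 0.0336, adjusted p = 0.767 in limma).

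Bub1b.L, of another checkpoint protein, showed separate levels among the sex-reversed ovaries. It was 5.44 and 5.59 in replicates 1 and 2, 9.36 and 9.33 in replicates 3 and 4, and 5.70 to 6.14 in normal ovary (difference 1.53 ± 0.93, SE). The high arrays both belong to array set 1, where the difference was 3.42, against −0.36 within set 2. Anapc16.L and anapc7.S, subunits of the anaphase-promoting complex, differed by −0.30 ± 0.16 and 0.33 ± 0.21. Anapc7.S was dim, and its normal and sex-reversed means of 3.48 and 3.81 lay under each array's lower quartile.

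Of 24 genes of oocyte maturation and cyclin mRNA translation 13 were above and 11 below the normal mean. Pabpc1.S, of a poly(A)-binding protein, differed by 0.45 ± 0.17 (log2, SE; adjusted p = 0.753 in limma), and zar2.S, of a maternal RNA-binding protein, by 0.43 ± 0.21. Tent2.S, of a cytoplasmic poly(A) polymerase, differed by 0.22 ± 0.15 on its brightest probe set and by −0.79 ± 0.51 on another. Msi1.L, of a translational regulator, differed by −0.80 ± 0.57. The msi1.L value was −1.96 within array set 1 and 0.36 within set 2. Mos.L, of the kinase that starts the MAP kinase cascade of maturation, differed by 0.02 ± 0.22 on its brightest probe set and by 0.37 ± 0.19 on another.

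Of 28 genes of other cyclins and their kinases 16 were above and 12 below the normal mean, and 0 had an unadjusted p under 0.05 on their brightest probe sets. Of 12 further probe sets of genes in the 5 lists, 2 reached it, against 6.38% of all probe sets. They were 1 of ccnyl1.S, a cyclin Y-like gene (0.96 ± 0.24, log2, SE; unadjusted p = 0.003, adjusted p = 0.639 in limma), and 1 of ppp1ca.L, of a protein phosphatase in the Cdk1 list (2.78 ± 1.06; adjusted p = 0.753). This ppp1ca.L probe set was split, at 4.31, 8.88, 8.51 and 4.28 in sex-reversed replicates 1 to 4, against 3.49 to 3.99 in normal ovary. The brightest probe sets of ccnyl1.S and ppp1ca.L gave 0.20 and 0.11, and both genes are named after their values were seen. The A-type cyclins, which also pair with Cdk1, differed by −0.07 ± 0.13 (log2, SE) for ccna1.L, −0.02 ± 0.14 for ccna1.S, 0.24 ± 0.18 for ccna2.L and 0.18 ± 0.14 for ccna2.S. Ccne1.L, a cyclin of S phase entry, averaged 10.47 ± 0.08 on the normal and 10.72 ± 0.10 on the sex-reversed arrays (SD, n = 4 each) with no overlap (adjusted p = 0.796 in limma). Its other probe sets, both dimmer, differed by 0.47 ± 0.24 and −0.86 ± 0.52 (log2, SE), each with overlapping groups. Ccnh.L, of a subunit of the kinase that activates Cdk1, differed by 0.19 ± 0.12, cdk5.L by 0.80 ± 0.49 and ccnj.S by −0.35 ± 0.26. Cdk5.L was 6.55, 8.40, 8.35 and 6.80 in normal and 7.48 to 8.86 in sex-reversed ovary. Its lowest arrays were thus normal replicates 1 and 4, and it differed by 1.25 within array set 1 and 0.36 within set 2.

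Proliferation genes of dividing cells were above the normal mean in 15 and below it in 8 of 23. Rrm1.L, of ribonucleotide reductase, averaged 11.31 ± 0.15 on the normal and 11.63 ± 0.05 on the sex-reversed arrays (SD, n = 4 each) with no overlap (unadjusted p = 0.0369, adjusted p = 0.771 in limma). Kif20a.L, of a kinesin of cell division, differed by −1.05 ± 0.57 (log2, SE). It was 8.74, 8.25, 8.17 and 6.54 in normal and 6.44, 6.57, 8.28 and 6.22 in sex-reversed ovary, so 1 array of each group lay at the level of the other. The homeologs of tpx2, a spindle assembly factor, differed by −0.66 ± 0.40 for tpx2.L and 0.19 ± 0.14 for tpx2.S. Tpx2.L was 6.28 in sex-reversed replicate 1 and 7.79 to 8.21 in the other sex-reversed ovaries, against 7.88 to 8.66 in normal ovary.

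**Figure D4:**
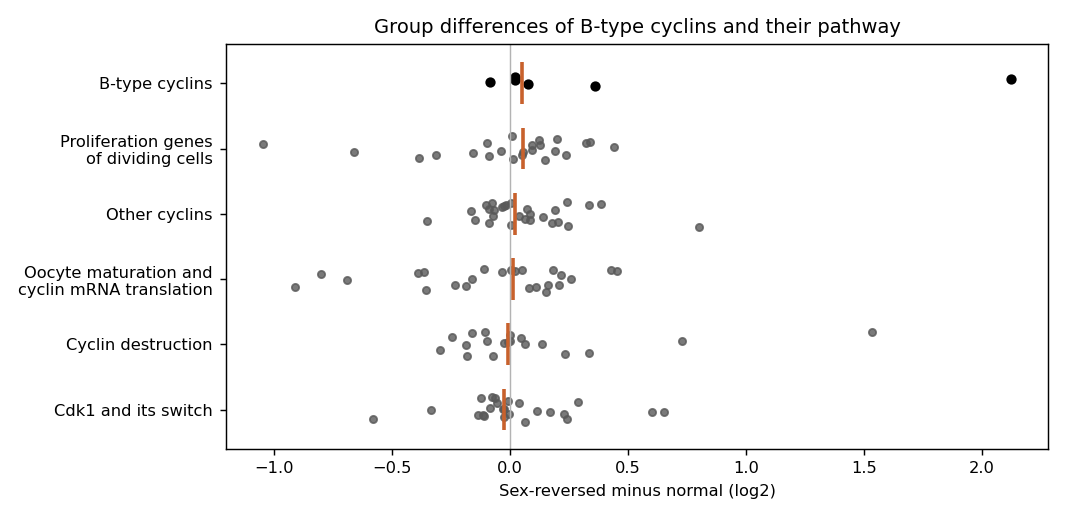
Sex-reversed minus normal difference (log2, horizontal axis) of the 6 B-type cyclins and of each measured gene in 5 lists, 1 point per gene from its brightest probe set, with an orange line at each median. The medians lie between −0.03 and 0.06, and ccnb2.S at 2.12 and bub1b.L at 1.53 are the points farthest to the right.

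Markers of the cells in the ovary were read beside these results. In bulk tissue, fewer cells of a type and less RNA per cell cannot be told apart. The 13 oocyte markers had 4 values above and 9 below the normal mean, and 0 with an unadjusted p under 0.05. On the 2 arrays low in ccnb2.S the oocyte list averaged 9.84 and 9.76, against 9.81 and 9.55 on normal replicates 2 and 3. The 8 stroma markers had a median difference of −0.60, with 4 lower and 1 higher at an unadjusted p under 0.05 against 6.38% of all probe sets, and averaged 6.56 to 7.13 in normal and 6.09 to 6.49 in sex-reversed ovary. The 4 follicle wall genes averaged 5.60 to 6.64 in normal and 5.68 to 6.62 in sex-reversed ovary, with normal replicate 1 lowest. The 4 leukocyte genes averaged 4.24 to 4.82 and 4.12 to 4.60, with 1 higher and 1 lower at an unadjusted p under 0.05, and the 8 erythrocyte genes averaged 4.08 to 4.46 and 4.13 to 4.36, with 1 higher. Of these, 1 leukocyte gene and 4 erythrocyte genes were dim, under the lower quartile on every array. The 2 measured genes of the list drawn up for testis went opposite ways, and neither is read here as a sign of testis tissue. Lhx9.L was 3.87 to 4.33 in normal and 4.91 to 5.38 in sex-reversed ovary without overlap (difference 0.96 ± 0.17, SE; adjusted p = 0.582 in limma). Sox9.S was 4.52 to 6.04 and 4.57 to 5.09 (−0.71 ± 0.33; adjusted p = 0.787 in limma). The part of these cell types in the cyclin values was not tested.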

How the data were processed

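The authors deposited 1 log2 expression value per probe set and array, and the submitters' processing notes name RMA, with no version. This method subtracts background, brings the arrays to a common distribution and summarises each group of probes. The log base is not stated and was taken as 2, the base RMA uses. No scanner file was used here, detection above background was not tested, and precision is limited by the number of arrays. Of 91880 values, 37.8% occur to the last digit on more than 1 array.

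Symbols are those of the platform's annotation and can be out of date. Of 11485 probe sets, 6798 had 1 symbol, 110 several and 4577 none listed. Titles gave 2 groups of 4 biological replicates, and whether animals shared parents is not stated, so p-values treat these 8 arrays as independent. In limma the variance of each probe set was pooled over both groups and drawn toward a value shared by all probe sets. Its SE, interval and p are therefore not set by that probe set's own spread alone. For ccnb2.S the pooled groups had unlike SDs, 2.12 and 0.29.

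All 11485 probe sets were fitted together with limma 3.58.1 in R 4.3.3 (lmFit and eBayes, no covariate, no filter, two-sided, Benjamini-Hochberg adjustment over all probe sets), and the code was tested on simulated data. Figures used Python 3.11.15 and matplotlib 3.10.9. Homeolog contrasts used exact permutation over arrays. Array sets came from clustering the arrays (average linkage, distance 1 minus Pearson's r), with the number of sets fixed at 2. Named list genes were the 4 of smallest unadjusted p per list, as none passed, plus fixed cell cycle genes. Bloc1s6.S, elovl7.L and the genes low or high in normal replicates 1 and 4 were named after their values were seen, or by likeness to ccnb2.S. The members and lists were chosen with earlier results of these data known. Alternatives were the replicate number as a block, further normalizations, a trended robust prior, array weights, a filter on low values, array set as a block, sex-reversed replicate 4 counted as normal, other thresholds, all probe sets, and each array left out. No sequences were used here.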

Additional observations from a re-analysis of the deposited data

Results flagged for a closer look

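Of the 12 groups of 4 arrays formed by the 6 members, 3 held an array far from the other 3. Chance gives about 1 in 20 independent groups, but these share the same 8 arrays, so the 3 are not read as an excess. In the flagged groups of ccnb1.S and ccnb1.2.L some values are tied to the last digit, and differences there are at the grain of the data. Sex-reversed replicate 4 was the lowest of its group for ccnb2.S, at 11.65 against 12.21 to 12.26, and for ccnb1.S, at 12.96 against 13.11 to 13.13. The ccnb1.S value lies below every normal array as well. The source name of this array said normal. Its lhx9.L value of 5.38 was the highest of all 8, against 3.87 to 4.33 on the normal arrays. Lhx9.L came from a list chosen with earlier results of these data known, and its group difference counted this array as sex-reversed. This value therefore cannot decide the label. The sox9.S values of all 4 sex-reversed arrays, 4.57 to 5.09, lay within the normal range of 4.52 to 6.04, with this array the lowest of the 4. They cannot decide the label either. Which label of sex-reversed replicate 4 is right was not tested. Normal replicate 1 was the lowest of its group for ccnb1.2.L, at 13.10 against 13.18 to 13.20. The split of ccnb2.S among the normal arrays is not of this kind, because 2 of 4 arrays lie at each level.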

How the results depend on the processing

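No B-type cyclin passed an adjusted p of 0.05 in limma under any alternative run. The adjusted p of ccnb2.S ran from 0.498, with array set as a block, to 0.925, and its unadjusted p from 0.0086 to 0.113. The threshold at an unadjusted p of 0.05 called 1 member, 6 list genes and 733 probe sets, and an adjusted p of 0.10 called none. Over all probe sets, leaving out 1 array gave 0 to 2 calls, none of them a member, and it gave 0 calls in the lists. The replicate numbers are not known to pair the animals. The deviations of same-numbered arrays correlated at −0.19 to 0.24, and 2 of 8 arrays correlated best with their own number. With the replicate block ccnb2.S kept its difference of 2.12 (unadjusted p = 0.0268, adjusted p = 0.833 in limma), and the block changed no call. The ccnb2 homeolog contrast ran from 1.44 to 2.77 when 1 array was left out, and that of ccnb1.2 from 0.02 to 0.10. The latter turned to −0.049 under quantile normalization and −0.018 with sex-reversed replicate 4 counted as normal. With 1 array left out, ccnb2.L ran from −0.045 to 0.091, below 0 without normal replicate 2, normal replicate 3 (−0.019) or sex-reversed replicate 3 (−0.028), and ccnb1.2.L ran from −0.0013, without normal replicate 1, to 0.036. Within array sets 1 and 2 ccnb2.L was −0.13 and 0.18. Quantile normalization also moved ccnb1.2.L from 0.02 to 0.13 and ccnb1.S from −0.09 to −0.01. The cause of these moves was not tested.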

Other observations

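The genes that share the profile of ccnb2.S have known places in the human genome, given here as background and chosen after their values were seen. In human, CCNB2, PIGB, BLOC1S6 and MESD lie on the same chromosome, and ELOVL7, CERT1, PAIP1 and GRAMD2B lie on another. A shared chromosome does not make them neighbours. How often other genes share a chromosome in this way was not counted, and no cause is read from it. Of the 8 named low genes 6 end in .S and 2, mesd.L and cert1.L, in .L, so by these names they do not all lie on the same frog chromosome. Of the named genes that were high on the same arrays, bloc1s6.S is also among the low ones and is placed above. Human CDC42SE2 lies on the chromosome of ELOVL7, while CPA1 and SRSF2 lie on chromosomes of neither set. Positions in X. laevis or X. muelleri were not used here, and whether the probe sets neighbour each other in these frogs was not tested.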
